A study of Mus musculus with 144 samples.

Results

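In mouse liver, 34 genes had fitted daily peaks within 4 h of each other in control mice fed ad libitum and in control mice on reverse-phase feeding, out of 24421 gene symbols measured. They were chosen from the control libraries alone. Counts were divided by the library total and expressed as CPM (counts per 1000000 counts), a 24-h cosine curve was fitted to log2(CPM + 1) in each feeding table, and a gene was kept if its mean was at least 5 CPM, its peak-to-trough range at least 0.5 on the log2 scale and the share of variance explained (R2) at least 0.3 in both tables, with peaks no more than 4 h apart around the clock. Of 8175 genes with enough expression in both tables, 1024 met the rhythm limits in both. The 34 genes make up 3.32% of these, and the other 990 had peaks over 4 h apart.

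The mice were male C57BL/6J on normal chow. Controls are labelled WT and carry GFP in the column names; the knockout is labelled as a double deletion of REV-ERB a and b in adult hepatocytes and carries CRE, so the vector and the genotype cannot be told apart. Liver was sampled in both genotypes at 8 zeitgeber times (ZT, counted in h from lights on), namely 1, 4, 7, 10, 13, 16, 19 and 22, either with food always present (ad libitum) or with reverse-phase feeding, where food comes in the rest phase (called reversed feeding below). Each genotype and time has 3 libraries, which makes 48 for a schedule. Isolated endothelial and Kupffer cells were profiled at ZT 4, 10, 16 and 22, with 24 libraries each, and the labels give no feeding schedule for them. Each schedule is its own deposited table, so feeding and table cannot be told apart. Nothing in the labels ties a library to an animal of its own, and p-values therefore cover the spread among libraries, which may be technical. The labels used here give neither the age of the mice nor the promoter driving the recombinase.

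Daily gene expression in the liver follows a clock inside each cell and signals from outside it. Inside the cell, activators bind E-box sequences, and REV-ERB proteins, nuclear receptors encoded by Nr1d1 and Nr1d2, repress genes through ROR elements. Food intake, glucocorticoid hormone, body temperature and nervous input also act on hepatocytes, and the time of feeding is known to move the liver clock while the brain clock stays with the light cycle.

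Library totals ran from 6785502 to 15005082 counts ad libitum and from 19841030 to 39411748 on reversed feeding. The deeper table did not have the closer fits: the median control R2 of the 34 genes was 0.49 ad libitum and 0.39 on reversed feeding. The hepatocyte marker list (12 of 13 genes measured, including Alb and Apoa1) summed to between 88861 and 120328 CPM in ad libitum controls, against 139 to 327 CPM for 22 endothelial markers. All 20 core clock genes were in the tables, 16 of them with at least 5 CPM in both. Of these, 12 were rhythmic in both control tables, and all 12 had moved by more than 4 h, with a median of 10.3 h. Of all 1024 genes rhythmic in both control tables, 990 had moved by more than 4 h, and the median of the 1024 was 9.99 h. None of the 34 genes is a core clock gene. Transcripts of the targeted genes were not lower in the libraries labelled knockout: Nr1d1 spanned 0.863 to 114 CPM in controls and 12.9 to 121 CPM in the knockout ad libitum, and 2.68 to 65 and 26.9 to 95.6 CPM on reversed feeding. Their daily means were higher by 1.76 ± 0.15 and 1.83 ± 0.15 (SE, log2) for Nr1d1 and by 1.11 ± 0.10 and 0.80 ± 0.08 for Nr1d2. Counts cover whole transcripts and the labels do not say which exons were removed, so these levels do not check the deletion. Arntl, a gene that REV-ERB represses, was higher by 1.62 ± 0.12 and 1.63 ± 0.10 (adjusted p = 1.35e-14 and 3.22e-18, edgeR quasi-likelihood). Knockout below means the libraries so labelled.

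The working name of the group, rhythms that resist reversed feeding, goes further than the rule, and the genes are called here by the rule, as those within 4 h. In the knockout the rhythm of 19 of the 34 differed between schedules, against 50.5% of all genes and 92.5% of the 990 shifted genes. Knockout peaks were within 4 h for 20 of the 34, against 21.1% of all genes with enough expression and 6.57% of the shifted genes. The 34 genes are the low end of one continuous distribution, with 5, 7, 10 and 12 genes in the successive 1-h bins of peak difference up to 4 h, 20 in the next bin and 259 in the last. Prkdc, Ythdc2 and Rnf186 sat just inside the limit at 3.83, 3.89 and 3.97 h, and Mpdz, Serinc3 and Tango2 just outside it at 4.0, 4.12 and 4.16 h. The standard error (SE) of a control peak difference was 1.36 h for Rnf186 and 1.52 h for Prkdc, which is wider than these gaps. Only Pfkfb1 and Psmb10 reached an R2 of 0.5 in both tables. These values chose the genes and carry no test.

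**Figure D1:**
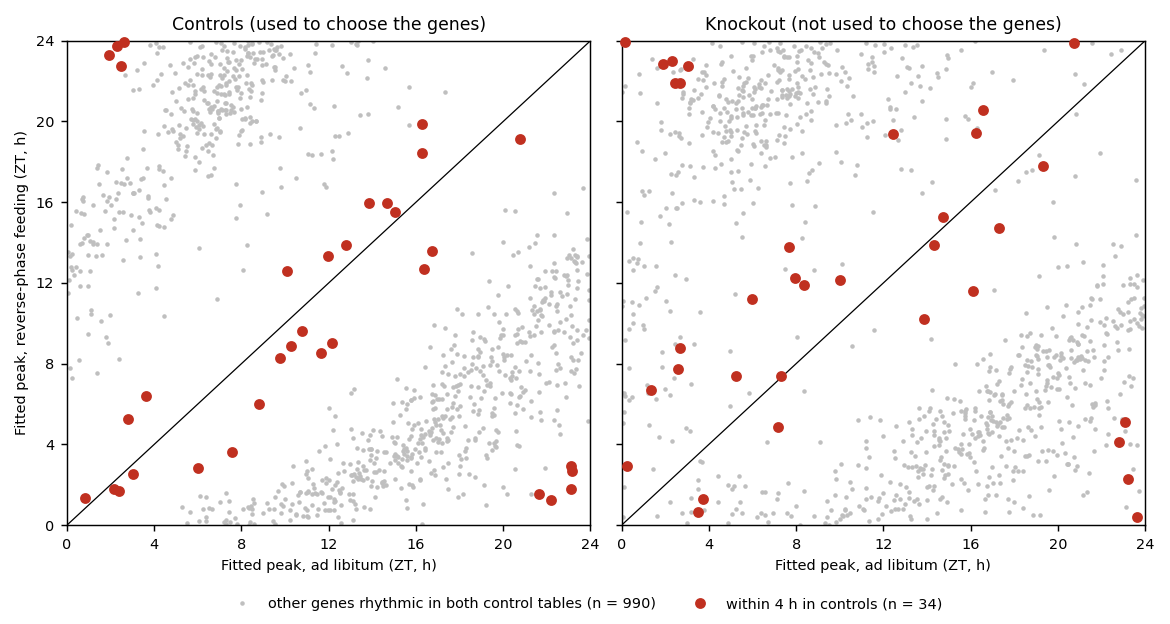
Fitted peak time on reversed (reverse-phase) feeding (ZT, h, vertical) against ad libitum feeding (ZT, h, horizontal) for the 1024 genes rhythmic in both control tables, in controls on the left and in the knockout on the right; each point is 1 gene, red points are the 34 genes within 4 h in controls, and the line marks equal peaks. In controls the red points lie along the line or its corners by construction, and in the knockout 20 of the 34 lay within 4 h, against 21.1% of all genes with enough expression.

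The peaks of the 34 genes fell into 3 windows of the ad libitum day. From ZT 20 to ZT 5 there were 16 genes, from ZT 5 to ZT 13 there were 11, and from ZT 13 to ZT 20 there were 7. The first window held most of the long transcripts, with a median length of 4577 bases (1549 to 12586), against 1266 and 2131 bases in the other windows. It included the chromatin remodeller Chd2, the DNA repair kinase subunit Prkdc, the RNA helicase Ythdc2 and the protein kinase D family member Prkd3. The slope of log2 expression on log2 transcript length, taken in each control library, also varied with time, with a fitted peak at ZT 22.5 ad libitum (R2 0.11) and at ZT 1.1 on reversed feeding (R2 0.28), and its part in these rhythms was tested only by a refit. With that slope as a covariate 15 of the 34 genes still met the rule. These were all 7 genes of the ZT 13 to ZT 20 window, 4 of 11 in the ZT 5 to ZT 13 window and 4 of 16 in the window from ZT 20 to ZT 5.

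**Figure D2:**
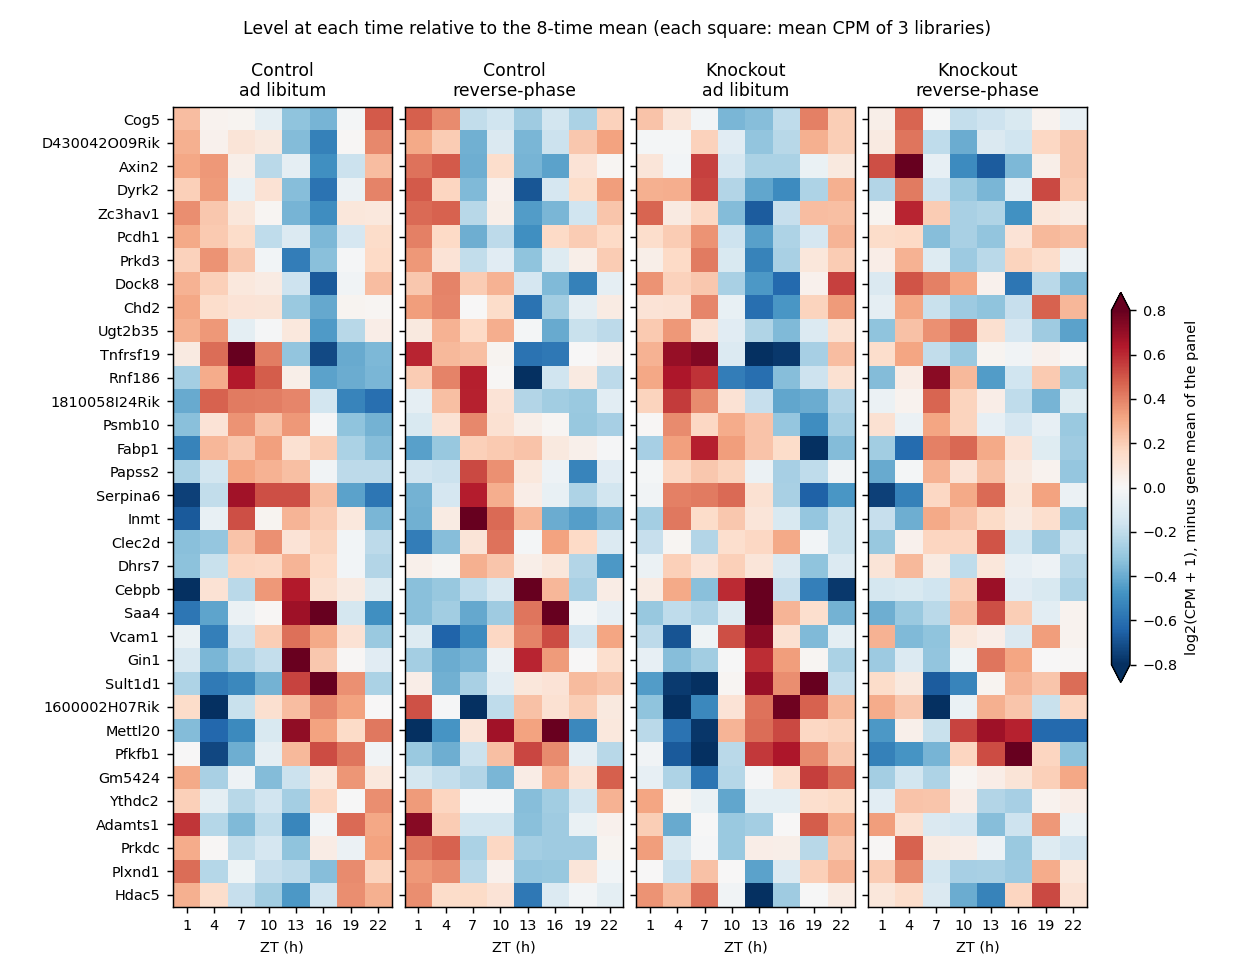
Level of each of the 34 genes (rows, ordered by ad libitum control peak from the earliest) at 8 times (ZT, h) in the 4 liver groups, as log2 of the mean CPM of 3 libraries + 1, minus the gene's mean over the 8 times of that panel. Gin1 and Cebpb are highest at ZT 13 in all 4 panels, while Serpina6 peaks earlier ad libitum than on reversed feeding in the knockout.

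Promoters were searched for elements of the clock and of hormone, heat and cAMP signals. RefSeq windows on GRCm38.p6 from 250 bases before to 50 bases after the start were found for 26 of the 34 genes. Both strands were searched and no match overlapped one of another motif. The E-box (CACGTG) was in 3 of 26 promoters (11.5%; Hdac5, Psmb10 and Tnfrsf19), against 16.1% of 768 promoters of shifted genes and 8.09% of all 27025. The ROR element (TAGGTCA) was in 1 (3.85%, against 3.39% and 2.97%), and neither D-box form (TTATGTAA or TTACGTAA) was in any (1.69% and 1.23%). The heat shock element (GAANNTTC) was in 3 (11.5%, against 7.68% and 9.04%), the cAMP element (TGACGTCA) in 1 (3.85%, against 3.26% and 2.03%) and the glucocorticoid element (ACANNNTGT) in 1 (3.85%, against 6.9% and 7.9%). With 26 promoters the shares rest on 3 genes at most, and a match is a stretch of letters, not a bound site.

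The stretches upstream of 5 of the genes are shown as examples, with the match in capitals, 5′ to 3′ on the gene's strand. Each holds an element of the clock loop or of a systemic signal and belongs to a gene whose values are given below. Dock8, Prkd3 and D430042O09Rik also had upstream matches, which are not shown. Fabp1 holds the reverse complement of the ROR element at chr6:71199772-71199858 (plus strand), Psmb10 an E-box at chr8:105938463-105938548 (minus), Tnfrsf19 an E-box at chr14:61038075-61038160 (minus), Pfkfb1 a glucocorticoid element at chrX:150594231-150594319 (plus) and Gin1 a heat shock element at chr1:97769947-97770034 (plus).
Fabp1: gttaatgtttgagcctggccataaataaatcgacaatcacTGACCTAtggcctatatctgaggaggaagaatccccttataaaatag
Psmb10: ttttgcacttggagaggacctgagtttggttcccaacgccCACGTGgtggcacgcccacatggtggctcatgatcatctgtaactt
Tnfrsf19: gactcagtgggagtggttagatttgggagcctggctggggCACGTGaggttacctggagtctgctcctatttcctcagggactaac
Pfkfb1: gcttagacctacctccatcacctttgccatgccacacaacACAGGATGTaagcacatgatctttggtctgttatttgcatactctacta
Gin1: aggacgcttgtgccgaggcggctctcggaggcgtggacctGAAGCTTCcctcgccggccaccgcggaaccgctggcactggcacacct

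Genes of fuel metabolism are described first. Fabp1, the liver fatty acid-binding protein (mm9 chromosome 6, 71149882 to 71155017), carries fatty acids in the cytosol. Its control libraries held 2788, 2792 and 3084 CPM at ZT 10 and 1252, 1620 and 1896 CPM at ZT 1 ad libitum. Under reverse-phase feeding they held 2647, 3080 and 3280 CPM at ZT 10 and 1638, 1680 and 2457 CPM at ZT 1. All ZT 10 libraries were above all ZT 1 libraries on both schedules. Here and below, control values chose the genes, and the high and low times shown were picked from them. Separation or overlap of control libraries is therefore a description and no support for a rhythm. In the knockout Fabp1 was rhythmic in both tables (range 1.24 ± 0.21 (SE), adjusted p = 0.000216 ad libitum; 0.84 ± 0.16, adjusted p = 0.00041 on reversed feeding; edgeR quasi-likelihood test with Benjamini-Hochberg adjustment over all genes, used for all liver p-values below). Its knockout peaks were at ZT 8.4 and ZT 11.9, and the rhythm differed between schedules (adjusted p = 0.00978), though not without replicate 2.

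Pfkfb1, the liver form of the enzyme that makes and breaks down the sugar bisphosphate balancing glycolysis and gluconeogenesis (mm9 chromosome X, 147024464 to 147078421), was 1 of the 2 genes with an R2 of at least 0.5 in both control tables. Ad libitum controls held 49.3, 51.6 and 55.3 CPM at ZT 16 and 17, 22.8 and 24.1 CPM at ZT 4. Under reverse-phase feeding they held 32.6, 42.3 and 44.5 CPM at ZT 13 and 19.5, 19.6 and 22.3 CPM at ZT 4. The high and low times did not overlap on either schedule. The knockout had 49.7, 54.1 and 76.3 CPM at ZT 16 ad libitum and 43, 44.2 and 53.1 CPM at ZT 16 on reversed feeding, both above every ZT 4 library, the highest of which held 26.3 and 21.7 CPM. The knockout range was 1.39 ± 0.18 (adjusted p = 1.14e-05) and 1.31 ± 0.14 (adjusted p = 1.22e-07), with peaks at ZT 17.3 and ZT 14.7. The peaks were 2.59 ± 0.63 h apart. The test of a schedule difference, here and below, takes range and timing together and is no test of the peak distance alone. It was called for Pfkfb1 (adjusted p = 0.00438), though not without replicate 1 or replicate 2.

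Mettl20, listed in RefSeq as Etfbkmt, methylates a subunit of the electron transfer flavoprotein of mitochondrial fatty acid oxidation. Its control ranges were 1.21 ad libitum and 1.34 on reversed feeding, the latter the highest of the 34, with peaks at ZT 16.4 and ZT 12.7. In the knockout the ranges were 1.17 ± 0.23 (adjusted p = 0.00168) and 1.26 ± 0.22 (adjusted p = 2.51e-05). The knockout peak was 4.54 ± 1.0 h earlier on reversed feeding, and the schedule difference was called (adjusted p = 0.00275), though not without replicate 2.

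The lists around these genes are given beside the 3.32% of all 1024 rhythmic genes that had peaks within 4 h. Of the fatty acid oxidation and PPARA target list, 35 of 38 genes reached 5 CPM in both control tables and 6 were rhythmic in both; Fabp1 was within 4 h and the other 5 were not. Of the glucose and glycogen list, 28 of 34 genes reached 5 CPM and 11 were rhythmic in both; Pfkfb1 was within 4 h and 10 were not.

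The conjugation list held 3 of the 34 genes. Conjugation enzymes join sulfate, glucuronic acid or other groups to drugs and hormones so that they can be excreted. Of 57 listed genes 48 reached 5 CPM, 8 were rhythmic in both control tables, and Papss2, Sult1d1 and Ugt2b35 were within 4 h. Papss2 makes the activated sulfate that sulfotransferases such as Sult1d1 use, and Ugt2b35 transfers glucuronic acid; Ugt2b35 belongs to a family of similar genes whose reads the counting may have split.

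Papss2 had its highest group mean at ZT 7 in all 4 liver groups. Its controls held 186, 194 and 201 CPM at ZT 7 and 125, 130 and 135 CPM at ZT 1 ad libitum. Under reverse-phase feeding they held 191, 216 and 245 CPM at ZT 7 and 96.7, 104 and 112 CPM at ZT 19. The knockout held 163, 165 and 206 CPM at ZT 7 ad libitum, overlapping the 121, 155 and 177 CPM at ZT 1. Despite the shared highest time, the fitted knockout peaks lay at ZT 6.0 and ZT 11.2 and the rhythms differed between schedules (adjusted p = 0.000938), a call lost without replicate 3.

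Sult1d1 had control ranges of 1.40 ad libitum and 0.57 on reversed feeding. Ad libitum controls held 141, 152 and 169 CPM at ZT 16 and 41, 45.1 and 61.5 CPM at ZT 4, with no overlap. Under reverse-phase feeding they held 106, 144 and 167 CPM at ZT 19 and 67.2, 75.8 and 124 CPM at ZT 4, which overlapped. In the knockout the peaks were at ZT 16.6 and ZT 20.6, and the schedule difference was called (adjusted p = 0.00703), though not without replicate 1.

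Ugt2b35 had the smallest p of the 34 genes for a schedule difference in the knockout (adjusted p = 3.67e-06). Ad libitum the knockout held 365, 390 and 413 CPM at ZT 4 and 219, 240 and 258 CPM at ZT 16. Under reverse-phase feeding it held 207, 330 and 414 CPM at ZT 10 and 116, 162 and 236 CPM at ZT 22, and these overlapped, while the ad libitum values did not. The fitted peaks were at ZT 2.7 and ZT 8.8, a difference of 6.10 ± 1.02 h, while the control peaks were at ZT 3.6 and ZT 6.4.

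Other enzymes were Inmt, an N-methyltransferase of indole and thioether compounds, and Dhrs7, a short-chain dehydrogenase. Inmt controls ran from 797, 811 and 931 CPM at ZT 7 to 335, 368 and 411 CPM at ZT 1 ad libitum, without overlap. In the knockout its peaks were 4.30 ± 1.43 h apart and the schedule difference was called (adjusted p = 0.00691), a call lost without replicate 3. The Dhrs7 rhythm did not pass in either knockout table (adjusted p = 0.0582 and 0.624). Gm5424, a pseudogene similar to the urea cycle gene Ass1, was also kept, but its reads may come from that near-identical gene, so its counts are uncertain.

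Saa4, Cebpb and Serpina6 are described next, Saa4 from the acute phase list, Cebpb from the glucocorticoid response list and Serpina6 from neither. Saa4, the constitutive serum amyloid A apolipoprotein (mm9 chromosome 7, 53983369 to 53987913), held 722, 818 and 823 CPM at ZT 16 in ad libitum controls, above every library at the other times except the 541 to 724 CPM of ZT 13. Under reverse-phase feeding it held 279, 535 and 635 CPM at ZT 16 and 176, 180 and 202 CPM at ZT 7, with no overlap. The knockout was highest at ZT 13 on both schedules, with 122, 429 and 457 CPM ad libitum and 146, 176 and 184 CPM on reversed feeding. Its knockout rhythm passed in both tables (adjusted p = 0.011 and 7.97e-05), with peaks at ZT 14.3 and ZT 13.9, a difference of 0.44 ± 1.41 h. No difference between schedules was called (adjusted p = 0.99). The ad libitum call was lost without replicate 1 or replicate 3. The acute phase, complement and coagulation list had 47 genes at 5 CPM and 8 rhythmic in both control tables, of which Saa4 alone was within 4 h.

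Cebpb, a leucine zipper factor of gluconeogenesis and the acute phase response (mm9 chromosome 2, 167514415 to 167515932), was highest at ZT 13 in all 4 groups. Ad libitum controls held 22.8, 27.7 and 35 CPM at ZT 13 and 8, 8.72 and 9.34 CPM at ZT 1. Under reverse-phase feeding they held 180, 189 and 207 CPM at ZT 13, above every library at the other 7 times. The knockout held 25.2, 25.8 and 36.2 CPM at ZT 13 ad libitum and 77.2, 120 and 137 CPM on reversed feeding. The control mean was 18.9 CPM ad libitum and 107 CPM on reversed feeding, and this gap between tables was not tested. The knockout rhythm passed in both tables (adjusted p = 0.0286 and 0.00682), and no schedule difference was called (adjusted p = 0.246). The ad libitum call was lost without any of the 3 replicate numbers and without 3 single libraries, namely ZT 10 replicate 3 and ZT 22 replicates 1 and 3 (adjusted p up to 0.143 over its alternatives). Under reverse-phase feeding it was lost without replicate 3 and with the length slope as a covariate.

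Serpina6 encodes corticosteroid-binding globulin, the carrier of glucocorticoid hormone in blood (mm9 chromosome 12, 104884841 to 104895428). Controls held 201, 234 and 271 CPM at ZT 7 and 76, 86.8 and 98.2 CPM at ZT 1 ad libitum, and 239, 268 and 320 CPM at ZT 7 against 85.1, 119 and 207 CPM at ZT 1 on reversed feeding. The ZT 7 libraries were above the ZT 1 libraries on both schedules. In the knockout the peak lay at ZT 7.6 ad libitum and ZT 13.8 on reversed feeding, 6.13 ± 1.23 h apart, and the schedule difference was called (adjusted p = 0.000137). The control peaks were 1.19 h apart. Of the glucocorticoid response list, 20 of 24 genes reached 5 CPM and 9 were rhythmic in both control tables; Cebpb was the 1 within 4 h.

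**Figure D3:**
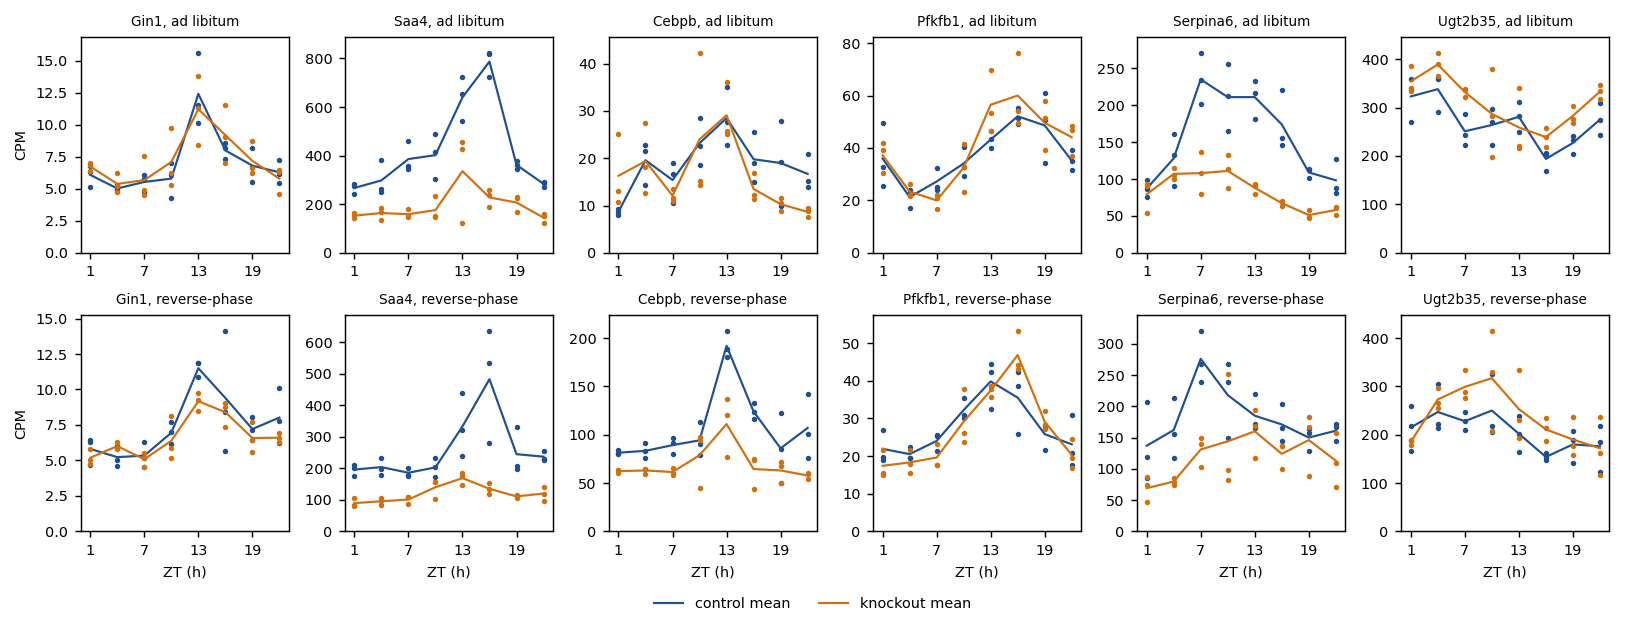
CPM (vertical axis, from 0) against time (ZT, h) for 6 of the genes under ad libitum (top) and reverse-phase feeding (bottom), with each library as a point and the mean of 3 as a line, controls in blue and the knockout in orange. Gin1 and Cebpb have their highest mean at ZT 13 in every panel, and Saa4 lies lower in the knockout on both schedules.

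Gin1, which derives from a retrotransposon integrase, had its 4 fitted peaks between ZT 14.7 and ZT 15.5 (mm9 chromosome 1, 99666749 to 99690285). At ZT 13 the controls held 10.1, 11.5 and 15.6 CPM ad libitum and 10.9, 11.9 and 11.9 CPM on reversed feeding, and the knockout held 8.42, 11.3 and 13.8 and 8.49, 9.23 and 9.78 CPM. At ZT 4 these groups held 4.89 to 5.26, 4.6 to 6.04, 4.72 to 6.19 and 5.82 to 6.32 CPM. The ZT 13 libraries were above the ZT 4 libraries in each group. The knockout rhythm passed in both tables (range 0.70 ± 0.17, adjusted p = 0.00239, and 0.58 ± 0.11, adjusted p = 7.58e-05) under each alternative run and without any single library. The fitted knockout peaks were at ZT 14.7 and ZT 15.3, 0.52 ± 1.2 h apart, and no difference was called (adjusted p = 0.902) or became called under an alternative. Such a p does not show that the rhythms are the same.

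A Wnt pathway gene and a receptor were high in the morning. Axin2, a target and inhibitor of the Wnt pathway, peaked at ZT 2.1 and ZT 1.8 in controls. In the knockout it reached 11.7, 14.5 and 15.3 CPM at ZT 4 on reversed feeding, against 3.14, 4.47 and 5.39 CPM at ZT 13 (range 1.26 ± 0.15, adjusted p = 1.29e-06). Ad libitum it reached 12.1, 12.9 and 14.1 CPM at ZT 7 and the range was 0.45 ± 0.18 (adjusted p = 0.0382), a call lost without replicate 1, replicate 3, the libraries that stand apart or any of 10 of the 24 single libraries. The schedule difference was called (adjusted p = 0.00152).

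Tnfrsf19, a receptor of the tumour necrosis factor family, held 9.94, 10.1 and 11 CPM at ZT 7 and 2.17, 2.64 and 3.59 CPM at ZT 16 in ad libitum controls. In the knockout its rhythm passed ad libitum (a 2.79-fold range, adjusted p = 4.19e-06) and did not pass on reversed feeding (1.22-fold, adjusted p = 0.707), where the 24 libraries lay between 0.984 and 4.49 CPM. The difference itself was called (adjusted p = 0.000266), though not without replicate 1. Rnf186, an endoplasmic reticulum ubiquitin ligase, had a knockout log2 range of 1.16 ± 0.27 (adjusted p = 0.00261) ad libitum and 0.53 ± 0.24 (adjusted p = 0.104) on reversed feeding. Its difference was called (adjusted p = 0.0174) but was lost without replicate 1, 2 or 3.

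Several regulators with late-night or morning peaks in controls had knockout rhythms that differed between schedules, by the test of range and timing together. Dock8, an activator of the small GTPase Cdc42 that is known from immune cells, had knockout peaks at ZT 1.3 ad libitum and ZT 6.7 on reversed feeding (adjusted p = 4.15e-05). Pcdh1, a protocadherin of cell contacts, had them at ZT 2.5 and ZT 21.9 (adjusted p = 6.57e-05). Hdac5, a class II histone deacetylase, had them at ZT 2.7 and ZT 21.9 (adjusted p = 0.000299), and its call was lost without replicate 1. Dyrk2, a kinase of the DNA damage response, had them at ZT 3.0 and ZT 22.7 (adjusted p = 0.0469). The Dyrk2 call did not hold without replicate 1, replicate 3, the libraries that stand apart or the filter on low counts. The Dyrk2 rhythm itself did not pass in the knockout on reversed feeding (adjusted p = 0.401), where its fitted peak had an SE of 1.96 h. Chd2, Prkd3, Prkdc and Ythdc2, described above as long transcripts, had knockout p-values ad libitum of 0.00262, 0.0054, 0.231 and 0.0475. None of the 4 passed on reversed feeding (adjusted p = 0.0733, 0.444, 0.0864 and 0.226). The Ythdc2 call was lost in 17 of 24 fits without 1 library, that of Chd2 without replicate 1 and that of Prkd3 without replicate 2.

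Psmb10, a catalytic subunit of the immunoproteasome that trims peptides for antigen presentation (mm9 chromosome 8, 108459628 to 108462292), had control peaks at ZT 9.8 and ZT 8.3. Its knockout peaks were at ZT 7.3 and ZT 7.4, only 0.06 ± 1.52 h apart. The knockout rhythm was clear ad libitum (adjusted p = 4.09e-05), while the reverse-phase call (adjusted p = 0.0441) was lost in 17 of 24 fits that left out 1 library. The list of antigen presentation genes had no other gene rhythmic in both control tables among 13 at 5 CPM.

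The antiviral RNA-binding protein Zc3hav1, the Golgi tether subunit Cog5, D430042O09Rik, Plxnd1 (a semaphorin receptor) and the secreted protease Adamts1 had control peaks between ZT 22.2 and ZT 2.4 and control means of 5.44 to 15.2 CPM. In the knockout Zc3hav1, Cog5 and Adamts1 passed ad libitum (adjusted p = 0.000182, 0.000757 and 0.000651), and Plxnd1 passed on reversed feeding (adjusted p = 0.0304), though not without replicate 1, replicate 3 or any of 5 single libraries. Clec2d, a C-type lectin, peaked at ZT 12 and ZT 13.3, and Vcam1, an adhesion molecule of vessels and macrophages, at ZT 14.7 and ZT 16. The noncoding transcript 1810058I24Rik peaked at ZT 8.8 and ZT 6.0, and 1600002H07Rik, listed in RefSeq as Tedc2 (a tubulin complex protein), at ZT 16.3 and ZT 19.9. Knockout rhythms passed in both tables for Clec2d (adjusted p = 0.0226 and 0.00145) and 1810058I24Rik (5.96e-07 and 0.00189), and ad libitum alone for Vcam1 (0.014) and 1600002H07Rik (0.000104). The ad libitum calls of Clec2d and Vcam1 were lost without replicate 3 and without 1 further replicate number, and the reversed call of 1810058I24Rik without replicate 1. Cog5 overlaps Hbp1 on the other strand (57.09 CPM ad libitum), and without a stated strand setting its reads cannot be told apart from those of Hbp1.

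The knockout libraries took no part in the rule, although each shares its table with the controls that did. Ad libitum, 30 of the 34 genes were called rhythmic in the knockout, against 43.9% of all 12433 genes tested and 859 of the 990 shifted genes. Under reverse-phase feeding 20 were called, against 37.3% of 13592 genes and 761 of the 990. The rhythm differed between the knockout schedules for 19 of the 34, against 50.5% of 13305 genes and 916 of the 990. The share of the 34 genes with a schedule difference was thus 55.9%, near that of all genes, and 92.5% of the shifted genes were called. Without replicate 1 the 19 became 11.

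In the knockout 20 of the 34 genes (58.8%) had peaks within 4 h, with a median difference of 3.26 h and a largest one of 6.96 h. Of all 8175 genes with enough expression, 21.1% were within 4 h. Of the 990 shifted genes, 65 were within 4 h (6.57%), with a median of 9.62 h. Among the 19 genes called rhythmic in both knockout tables, 10 were within 4 h, against 18 of 671 shifted genes and 9.08% of all 2754 genes called in both. The CPM, range and R2 limits of the rule were met in both knockout tables by 14 of the 34 genes. Of these 14, 6 had peaks within 4 h, and this count was not made for other genes. With the length slope as a covariate, 15 of the 34 were within 4 h with a median of 4.36 h. Controls and knockout of a schedule share a table, so their peaks share whatever sets the table apart.

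**Figure D4:**
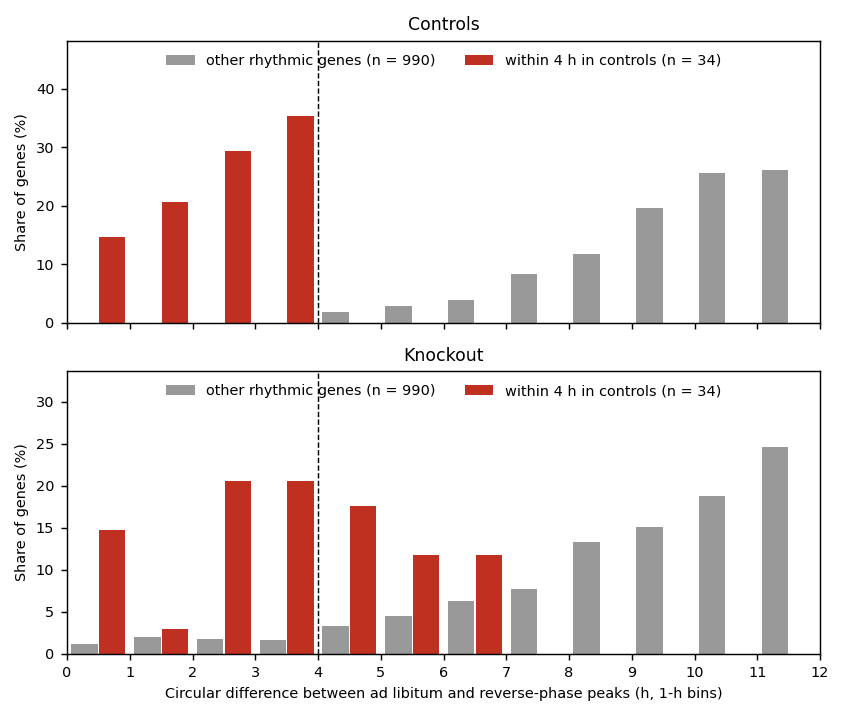
Share of genes (%) in each 1-h bin of the difference between ad libitum and reverse-phase peaks (h), in controls (top) and in the knockout (bottom), for the 34 genes (red) and the 990 other rhythmic genes (grey); the dashed line marks 4 h. The split at 4 h in controls is the selection itself, and in the knockout no red bar lies beyond 7 h while the grey bars are highest from 11 to 12 h.

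Within a schedule the timing of the 2 genotypes was close. The knockout peak lay within 4 h of the control peak for 31 of the 34 genes ad libitum and 30 on reversed feeding, and for 906 and 891 of the 990 shifted genes. The median distance was 1.53 and 1.41 h for the 34 genes. This is a description, because the control peaks were used to choose them. Only Cebpb, Gin1 and Papss2 had their highest group mean at the same sampled time in all 4 liver groups. The counts within 4 h were not made over all genes, and the highest times were compared for the 34 genes alone.

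The daily mean level of many of the genes was lower in the knockout. Ad libitum 10 genes fell and 4 rose in the knockout, against 27.2% of 12536 genes called (13.5% lower, 13.7% higher). Under reverse-phase feeding 14 fell and 5 rose, against 26.9% of 13812 genes (14.2% lower, 12.7% higher). Of the 990 shifted genes, 44.2% and 44.1% were called. Without replicate 3 the 19 calls on reversed feeding became 12. The median log2 change of the 34 genes was 0.03 ad libitum and -0.08 on reversed feeding, with -0.01 in both tables for the 990. In whole liver, fewer cells of a type and less RNA per cell cannot be told apart.

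In all, 10 genes were lower in the knockout on both schedules and 1 was higher. The share of all genes called in the same direction on both schedules was not counted. Rnf186 fell by 1.37 ± 0.14 (SE, log2) ad libitum and by 1.19 ± 0.16 on reversed feeding (adjusted p = 8.51e-11 and 3.73e-08), its mean CPM going from 6.58 to 2.64 and from 6.53 to 2.91. Saa4 fell by 1.09 ± 0.11 and 1.13 ± 0.09 (2.3e-10 and 6.72e-14), with means of 428 and 196 CPM ad libitum and 261 and 120 CPM on reversed feeding. Dhrs7 fell by 0.90 ± 0.08 and 1.13 ± 0.08, Tnfrsf19 by 0.83 ± 0.12 and 1.24 ± 0.14, and 1810058I24Rik by 0.68 ± 0.06 and 0.91 ± 0.09. Serpina6 fell by 0.88 ± 0.08 and 0.65 ± 0.13. Fabp1 fell by 0.50 ± 0.10 and 0.47 ± 0.09. The fatty acid oxidation list around it had 25 of 38 tested genes lower and 2 higher ad libitum, 23 lower and 1 higher on reversed feeding. Of all genes tested, 13.5% were lower and 13.7% higher ad libitum, and 14.2% lower and 12.7% higher on reversed feeding. The other genes lower on both schedules were 1600002H07Rik, Psmb10 and Dock8, and Dock8 lost its reverse-phase call without replicate 3. Gm5424 rose by 0.53 ± 0.07 and 0.55 ± 0.09, with the uncertainty of its reads given above.

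The falls are given here by peak window, as a description. Of all genes, 13.5% were called lower and 13.7% higher ad libitum, and 14.2% lower and 12.7% higher on reversed feeding. Other genes were not counted by window, so whether the windows differ for them is not known. In the ZT 5 to ZT 13 window 7 of 11 genes fell ad libitum and 10 of 11 on reversed feeding, with none called higher. In the window from ZT 20 to ZT 5, 1 of 16 fell and 3 rose ad libitum, and 1 fell and 5 rose on reversed feeding. Cebpb fell on reversed feeding by 0.63 ± 0.11 (adjusted p = 1.67e-05), with -0.19 ± 0.16 ad libitum (adjusted p = 0.407). Clec2d, Mettl20 and Papss2 also fell on that schedule alone, by 0.41, 0.42 and 0.20, and Axin2, Pcdh1, Plxnd1 and Hdac5 rose by 0.27, 0.27, 0.25 and 0.24. Of these, each but Clec2d lost its call without replicate 3, and Hdac5 also without replicate 1 or 2, Papss2 and Plxnd1 without replicate 1, and Mettl20 without replicate 2. Ugt2b35 rose ad libitum by 0.19 ± 0.06 (adjusted p = 0.0122), though not without replicate 2 or 3.

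**Figure D5:**
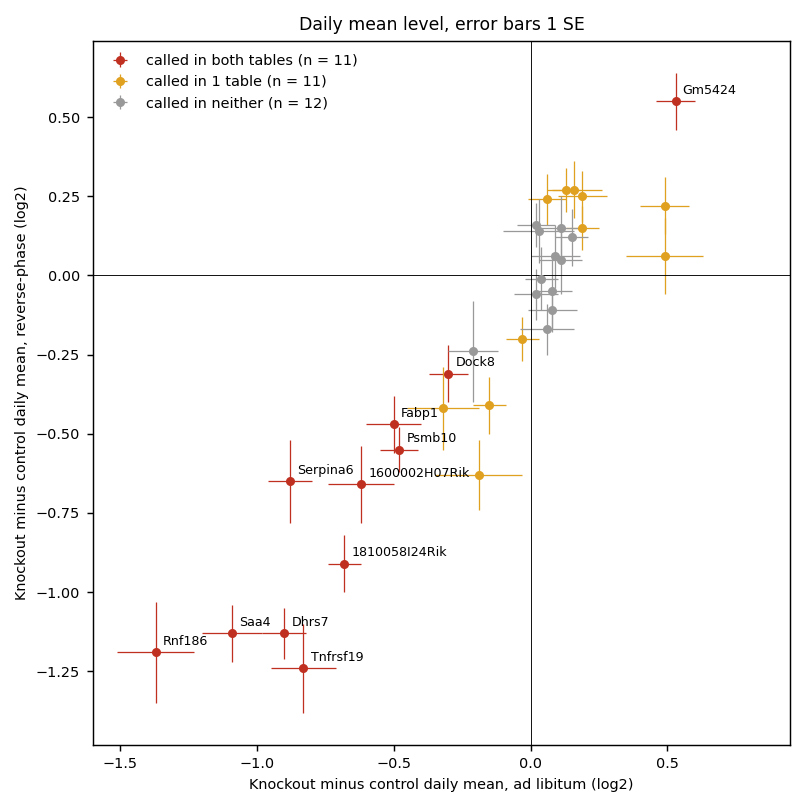
Knockout minus control daily mean (log2) of the 34 genes on reversed feeding (vertical) against ad libitum feeding (horizontal), 1 point per gene with bars of 1 SE; red points were called in both tables, yellow in 1 and grey in neither. The 10 genes lower in both tables, among them Rnf186, Saa4, Dhrs7 and Tnfrsf19, lie in the lower left, and Gm5424 alone in the upper right is red.

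Adamts1 and Vcam1 were well above most genes in isolated endothelial cells, and Vcam1 also in Kupffer cells. They rose ad libitum in the knockout by 0.49 ± 0.09 (adjusted p = 2.84e-05) and 0.49 ± 0.14 (adjusted p = 0.00826). Under reverse-phase feeding they had values of 0.22 ± 0.09 and 0.06 ± 0.12 that did not pass (adjusted p = 0.0804 and 0.751). The Vcam1 call was lost without replicate 1 or replicate 2. Plxnd1, Clec2d, Prkd3 and Chd2 ranked above Vcam1 in endothelial cells, and none was called ad libitum. Their log2 changes there were 0.19, -0.15, 0.02 and 0.04 (adjusted p = 0.0934, 0.0755, 0.886 and 0.717). On reversed feeding Plxnd1 was higher and Clec2d lower, as given above, and Prkd3 and Chd2 were not called. Of the endothelial markers 15 of 22 were called higher ad libitum and 9 of 22 on reversed feeding, and none lower. The stellate cell list had 10 and 9 of 12 higher. Of 15 Kupffer cell markers tested, 0 were called on either schedule. Of all genes, 13.7% were called higher ad libitum and 12.7% on reversed feeding. The endothelial sum ran from 139 to 327 CPM in controls and from 164 to 345 CPM in the knockout ad libitum, and from 162 to 324 and 183 to 376 CPM on reversed feeding, with no marker at 0. In ad libitum controls that sum peaked at ZT 21.7 with a log2 range of 0.75 (R2 0.55), and the stellate and Kupffer sums at ZT 23.2 and ZT 0.2 with ranges of 0.57 and 0.44. In controls on reversed feeding the endothelial sum had a range of 0.25 and a peak at ZT 6.2 (R2 0.14), while Adamts1 and Plxnd1 peaked at ZT 1.2 and ZT 1.8. The part of these cells in the levels and rhythms of Adamts1, Vcam1 and Plxnd1 was not tested.

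In isolated cells the deposited values are a quantile-normalised signal with no depth. Plxnd1, Clec2d, Prkd3, Adamts1, Chd2 and Vcam1 ranked above 99.4%, 98.9%, 97.4%, 97.3%, 96.9% and 96.6% of genes in endothelial controls. Vcam1 and Dock8 ranked above 99.3% in Kupffer controls. Rnf186 and Tnfrsf19 fell below the filter in both cell types, and Axin2 and Pfkfb1 in Kupffer cells. In control endothelial cells none of 32 genes tested was called rhythmic (limma F test of cosine and sine on log2 signal, adjusted over all genes; 7 at an unadjusted p under 0.05), against 6.15% of 12521 genes. In control Kupffer cells none of 30 was called (3 unadjusted), against 1.96% of 12267 genes.

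In cells from knockout livers 4 of the 32 were called in endothelial cells, against 13.2% of all genes, and 1 of 30 in Kupffer cells, against 1.84%. The 4 were Cog5, Dhrs7, Hdac5 and Psmb10, which were picked out after their values were seen. Hdac5 held 109, 176 and 180 units of signal at ZT 16 and 75, 81.6 and 115 at ZT 10 in endothelial cells of knockout livers (adjusted p = 0.0188), and the groups overlapped. Psmb10 held 121, 147 and 164 at ZT 16 and 60, 87.9 and 97.1 at ZT 4 (adjusted p = 0.0396), without overlap. The fitted peaks of Cog5, Dhrs7, Hdac5 and Psmb10 in these cells were at ZT 8.1, 10.1, 19.8 and 17.2. In knockout liver, where not every rhythm passed, they were at ZT 23.2, 7.2, 2.7 and 7.3 ad libitum. On reversed feeding they were at ZT 2.3, 4.9, 21.9 and 7.4. Dock8 in Kupffer cells of knockout livers held 3382, 3428 and 3677 at ZT 16 and 2546, 2706 and 2877 at ZT 10 (adjusted p = 0.024). Its fitted peak there was at ZT 18.1, against ZT 1.3 ad libitum and ZT 6.7 on reversed feeding in knockout liver. Without replicate 1, 2 or 3 there were 0, 2 and 1 endothelial calls and 0 Kupffer calls. Without the 3 endothelial libraries that stand apart, Cog5 lost its call, and Psmb10 became called in controls.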

How the data were processed

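RNA-seq of 96 liver libraries, 24 endothelial and 24 Kupffer cell libraries was read from 4 deposited tables. Per the submitters' processing notes STAR, HOMER and mm9 were used, with no versions; how reads were counted, and whether by strand, is not given in the sources used here. As deposited, the liver tables give an expected count for each transcript, in multiples of 0.5 (29.5% and 31.9% not whole), which were rounded for tests. The endothelial and Kupffer tables were deposited as a quantile-normalised signal, a step read from the values; a count test had been considered for them and limma was used, on log2(value + 1), for genes at 10 or more in 3 libraries. Transcript length is the score-like column of bases that the authors deposited beside the values. Of 34600 transcript rows, the one with the largest mean CPM was kept per symbol. Coordinates are those of the tables; transcript accessions were matched to a RefSeq table (99.0%, 33 of the 34 genes).

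Knockout rhythms, their schedule difference and the genotype effect on the daily mean were fitted in R 4.3.3 by edgeR 4.0.16 (robust quasi-likelihood, TMM factors and filterByExpr), the cell tables by limma 3.58.1, all adjusted over all genes tested, with 0.05 as the limit. Scripts were tested on simulated data. Control rhythms were used to choose the genes and were not tested, nor was the genotype difference in rhythm. Alternatives were DESeq2 1.42.0, its size factors, other filters and pseudocounts, time as a factor, replicate number as a block and leaving out libraries; fits without libraries that stand apart and with the length slope were added after the data were seen. A library stands apart from its group's others when its length slope or spread lies over 3 scaled median absolute deviations above the median, or with over 5% Rn45s in liver: 4 ad libitum, 3 endothelial, none otherwise.

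The genes, lists and tests were chosen with earlier results of these data known. Named were up to 3 genes per list, the 10 largest of the smaller control range, the 5 smallest p per knockout rhythm test and schedule difference, the 5 nearest and 5 farthest knockout peaks among genes called in both tables, the 5 largest falls and rises in both tables, genes called in both control cell types and the 3 on either side of the 4 h limit. Chd2, Clec2d, Cog5, D430042O09Rik, Plxnd1, Prkd3, Vcam1 and Zc3hav1 fell outside this rule and were named after their values were seen.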

Additional observations from a re-analysis of the deposited data

Results flagged for a closer look

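For 19 of the 34 genes the knockout rhythm differed between the 2 feeding schedules by the test of the difference itself (edgeR quasi-likelihood, adjusted over all genes). This share, 55.9%, was near the 50.5% of all 13305 genes tested and below the 92.5% of the 990 shifted genes. Since the 34 genes were chosen for like control peaks on the 2 schedules, the 19 are listed for a closer look. The adjusted p was 3.67e-06 for Ugt2b35, 4.15e-05 for Dock8, 6.57e-05 for Pcdh1, 0.000137 for Serpina6, 0.000266 for Tnfrsf19, 0.000299 for Hdac5 and 0.000938 for Papss2. It was 0.00152 for Axin2, 0.00275 for Mettl20, 0.00386 for 1810058I24Rik, 0.00438 for Pfkfb1, 0.00691 for Inmt, 0.00703 for Sult1d1 and 0.00978 for Fabp1. The least firm were Rnf186 (0.0174), 1600002H07Rik (0.018), Prkd3 (0.0212), Vcam1 (0.0384) and Dyrk2 (0.0469). Beside the losses given above, 1810058I24Rik lost its call without replicate 3, Prkd3 without replicate 1, 1600002H07Rik without replicate 1 or 3 and Vcam1 without replicate 1, 2 or 3. Groups of 3 libraries are too small for Dixon's test of a single outlying value in a gene.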

How the results depend on the processing

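The choice of the 34 genes depended on the limits and on single replicate numbers. A limit of 2 h left 12 genes, 6 h gave 81, an R2 of at least 0.5 left 2, no CPM minimum gave 56, and the length slope as a covariate gave 22, of which 15 were among the 34. Without replicate 1, 2 or 3 there were 44 to 53 genes, and 20 to 24 of them were among the 34. TMM scaling gave 35 genes (25 shared) and leaving out the 4 ad libitum libraries that stand apart gave 30 (27 shared).

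The counts of called genes moved most with fewer replicates. Without 1 replicate number or 1 library, knockout rhythms numbered 23 to 31 ad libitum and 14 to 23 on reversed feeding, the schedule difference 11 to 15, and the daily mean 13 to 15 and 12 to 19. The 4 endothelial calls in knockout livers became 0 to 2, the Kupffer call 0, and the calls in control cells stayed at 0. Leaving out the endothelial libraries that stand apart gave 1 call in controls, Psmb10. Without 1 replicate number, 19 to 20 of the 34 lay within 4 h in the knockout. DESeq2, its size factors and the other filters moved each of these counts by less than 1.5 times. No daily mean change that was called turned its direction under any alternative run.

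Replicate numbers did not pair the libraries: the deviations of same-numbered libraries had median correlations of -0.02 to 0.08 over the tables, with single pairs from -0.62 to 0.65. With the replicate number as a block the counts were 31 and 18 knockout rhythms, 19 schedule differences, 14 and 19 daily mean changes, 3 endothelial and 1 Kupffer call in knockout livers and 0 in control cells. The ad libitum libraries hold fewer counts than the reverse-phase ones, and the depth of the isolated cell libraries is unknown.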
